A study of Mus musculus with 8 samples.

Results

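The genes described here encode the proteins of the cytosolic ribosome, measured in the tibialis anterior, a fast muscle of the lower hind limb of the mouse. Members were chosen by name alone: array probes for genes called Rpl or Rps with a number, together with Rplp0, Rplp1, Rplp2 and Rpsa. The rule found 84 of the 24884 genes named on the array, with 182 of 56605 probes and 767 of 59305 non-control spots. Of these, 82 genes and 175 probes were bright enough to be tested, out of 16034 genes and 31649 probes in all. Rpl37 and Rpl10l were not tested, because the only probe of each was well above background on 0 arrays. The 82 tested genes comprised 42 of the large subunit, 31 of the small subunit, the 3 stalk genes Rplp0, Rplp1 and Rplp2, and 6 paralogs (Rpl3l, Rpl7l1, Rpl22l1, Rpl39l, Rps27l and Rps4l). The 76 tested genes other than paralogs were each well above background on all 8 arrays.

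Male C57BL/6J mice aged 14 weeks were compared, with 4 arrays of controls and 4 of mice that were given the anaerobic gum bacterium Porphyromonas gingivalis. The bacteria were suspended in 100 µL of saline and given by feeding needle over 6 weeks from the age of 8 weeks. All mice ate the diet named High-fat diet 32, so the control group carried it too. The sources used here state neither what the controls were given nor the number of bacteria. Each sample is taken as 1 mouse, although the labels do not state it outright, and should samples share a mouse, the p-values reflect no more than sample-to-sample spread. RNA came from whole muscle, in which fewer cells of a type and less RNA per cell cannot be told apart.

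The ribosome translates mRNA in its small subunit and joins amino acids in its large subunit. Each protein is usually present once per ribosome, apart from the stalk proteins, which recruit and activate the translation factors. Mammalian ribosomal protein mRNAs carry a 5′ terminal oligopyrimidine (TOP) tract, a C at the first base followed by a run of C and T. Through this tract the mTORC1 kinase regulates their translation together. In muscle, ribosome content bears on the capacity for protein synthesis, and a few proteins have paralogs with a tissue preference, such as Rpl3l of striated muscle.

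The TOP tract is the sequence these mRNAs share, so start sites are shown for a few of the genes. Each run has 10 bases before and 20 from the annotated start on the transcribed strand (RefSeq, GRCm38.p6), and capitals mark the run of C and T that begins at the start base. The first 6 hold the tract, and the last 3 hold none at the annotated start.
Rps6, chr4:86857348-86857377, minus strand: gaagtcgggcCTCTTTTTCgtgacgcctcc
Rpl38, chr11:114668570-114668599, plus strand: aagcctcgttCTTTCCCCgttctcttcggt
Rps27, chr3:90213629-90213658, minus strand: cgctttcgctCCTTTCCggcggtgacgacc
Rps18, chr17:33955646-33955675, minus strand: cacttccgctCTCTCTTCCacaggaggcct
Rplp2, chr7:141447641-141447670, plus strand: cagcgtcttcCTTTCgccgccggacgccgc
Rpl15, chr14:18270967-18270996, minus strand: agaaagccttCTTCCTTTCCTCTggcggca
Rpl12, chr2:32961702-32961731, plus strand: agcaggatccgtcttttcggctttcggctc
Rpl4, chr9:64173377-64173406, plus strand: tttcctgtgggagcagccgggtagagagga
Rpl3l, chr17:24727816-24727845, plus strand: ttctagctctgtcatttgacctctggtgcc

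Start windows were found for 63 of the 84 genes, and 57 of these were not paralogs. A C at the annotated start base followed by at least 4 bases that are each C or T stood in 13 of the 67 windows of these 57 genes (19.4%), against 823 of 32851 windows of all genes (2.51%). The search used the transcribed strand and the annotated base alone, so a start annotated a few bases away is missed: Rpl12, for one, has the run tcttttc just after its annotated base. A run of at least 8 such bases within 20 bases on either side of the start stood in 43.3% of the 67 windows and in 16% of all windows. The 8 windows of paralogs held the first pattern in 0 cases and the second in 2. These matches describe the letters in a window and are not measured start sites.

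The array held the ribosomal protein probes at high redundancy. Of the 300 probes printed in 10 spots per array, 65 (21.7%) belonged to 48 ribosomal protein genes, while these genes made up 0.322% of all probes. The SD between the 10 spots of 1 probe on 1 array had a median of 0.0536 on the log2 scale, which gives an SD of 0.017 for the mean of 10 spots. The same 65 probes varied between arrays of a group with a median SD of 0.0681, well above that spot error. Of the 82 tested genes, 34 are represented by a probe with 10 spots and 48 by one with 1 spot, whose spot error could not be measured. The within-group SD of the 76 genes other than paralogs had a median of 0.0674, from 0.0262 for Rpl41 to 0.109 for Rpsa. It was 0.127 over all genes tested and 0.077 over the 1933 genes at least as bright as the dimmest of the 76.

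All 8 arrays lay on 1 slide from 1 scan, with the controls in its row 1 and the P. gingivalis arrays in its row 2, so that row and group cannot be told apart. No spot was saturated, and arrays correlated at 0.9909 to 0.9949. Before scaling, the 75th percentile of the processed intensity was 275 to 305.8 in controls and 238.4 to 255.5 in P. gingivalis arrays. The authors' deposited value table, matched to the scanner files by correlation, gives 4 of the 8 arrays the other group, and which source is right could not be settled. Groups here are those of the scanner files. Control 1, control 2, P. gingivalis 3 and P. gingivalis 4 are the arrays on which both sources name the same group. All 9 skeletal muscle fibre markers listed for the check of the tissue were tested, that is, above background.

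The comparison asks whether oral P. gingivalis altered muscle gene expression, here that of the ribosomal protein genes. Levels are log2 signals relative to the array's 75th percentile, and differences are P. gingivalis minus control. None of the 82 genes passed an adjusted p of 0.05 by limma, and 0% of the 31649 probes passed it. The lowest adjusted p among the 82 genes was 0.433. At an unadjusted p under 0.05, 1 gene was higher (Rpl4; 4.86% of all genes were) and 1 was lower (Rpl12; 5.83% of all genes). These 2 genes are 2.44% of the 82, against 10.7% in both directions over all genes. The groups did not overlap for 1 gene higher in P. gingivalis, Rpl21 (3.24% of all genes), and for 6 lower, namely Rpl6, Rpl9, Rpl18, Rpl27, Rpl37a and Rps10 (3.83% of all genes). Over both directions this was 8.54% of the 82 genes, against 7.07% of all genes.

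The differences were small and narrowly bounded. The median over the 82 genes was −0.0393, with quartiles of −0.0817 and 0.0101, beside a median of −0.0142 over all genes tested. A difference below 0 was found in 57 genes (69.5%) and above 0 in 25, against 54.3% below 0 over all genes. With each array centred on the median of all probes, 45 of the 82 (54.9%) lay below 0 beside 44.4% of all genes. The median was then −0.00732 beside 0.0178 over all genes. With that centring 0 genes were non-overlapping and lower and 3 higher, 3.66% of the 82 against 6.92% of all genes. The median of the 82 genes less that of all genes was −0.0251. It is the same with either scaling by construction, because each subtracts a constant from all genes of an array. With normexp background correction 66 lay below 0 (80.5%, against 43.9% of all genes), and the median was −0.0715 beside 0.0209 over all genes. With it 19 genes were lower and 1 higher at an unadjusted p under 0.05, which is 24.4% of the 82 against 26.4% of all genes. The 95% confidence interval lay within 1.25-fold in either direction for 79 genes and within 1.5-fold for 81, the exception being Rpl39l. Over all genes tested, 83.3% of intervals lay within 1.5-fold, and over the 1933 genes at least as bright as the dimmest of the 76 it was 98.2%. Those 1933 genes had a median difference of −0.0103, with 55.1% below 0 and 9.93% non-overlapping.

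**Figure D1:**
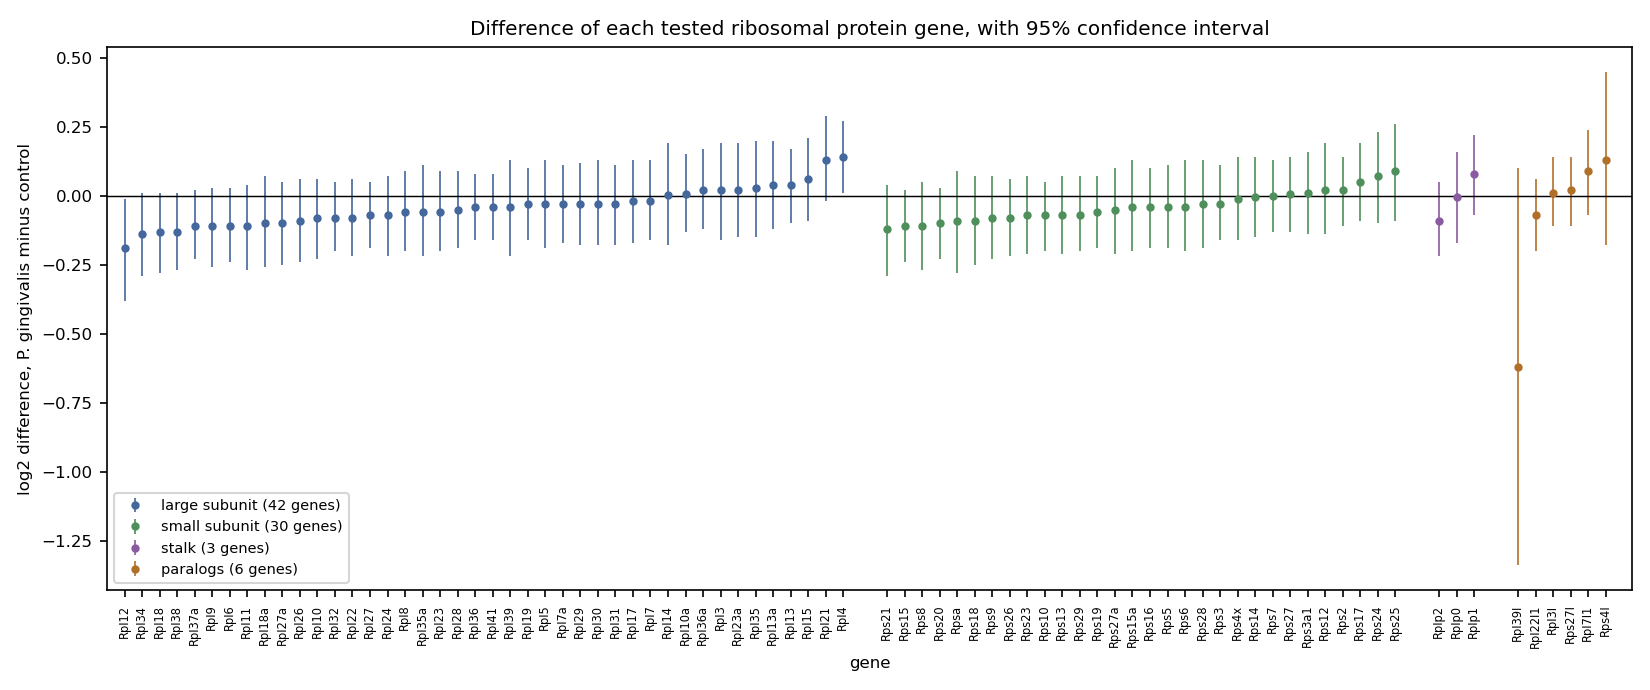
Log2 difference, P. gingivalis minus control, of 81 of the 82 tested ribosomal protein genes (points) with its 95% confidence interval (lines) from limma over 8 arrays, grouped by subunit and ordered by size. Most points lie just below 0 with intervals that include it; Rpl12 and Rpl4 are the genes whose intervals leave out 0, and Rpl39l has by far the widest.

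The ribosomal protein genes varied together from array to array. Averaged over the 76 genes other than paralogs, the deviation from each gene's mean was 0.077, 0.068, −0.025 and −0.045 on control arrays 1 to 4, and 0.007, −0.057, −0.01 and −0.015 on P. gingivalis arrays 1 to 4. At this scaling controls 1 and 2 stood highest, controls 3 and 4 lay within the P. gingivalis range, and the groups overlapped. On control 1, 70 of the 76 genes were above their own mean and on control 2, 65 were, against 22 and 14 on controls 3 and 4. In the P. gingivalis arrays the numbers were 35, 7, 35 and 30. Group means were 0.019 ± 0.063 (SD, n = 4) in controls and −0.019 ± 0.027 (SD, n = 4) in P. gingivalis muscle, so they differed by less than the SD of the controls. With quantile normalization the mean deviations were 0.038, 0.06, −0.012 and −0.005 in controls 1 to 4. They were −0.015, −0.027, −0.012 and −0.027 in P. gingivalis arrays 1 to 4. Control 4 then lay above every P. gingivalis array, and control 3 was level with the highest of them.

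The other 1857 genes of like brightness moved less. Their mean deviations were 0.032, 0.013, −0.013 and −0.025 in controls 1 to 4, and 0.011, −0.019, −0.01 and 0.01 in P. gingivalis arrays 1 to 4. Taken relative to them, the ribosomal protein genes stood at 0.045, 0.055, −0.012 and −0.02 in controls and at −0.004, −0.038, 0 and −0.025 in P. gingivalis muscle, so controls 1 and 2 again stood apart from controls 3 and 4. Without control 1 the median difference over the 82 genes was −0.0211, and without control 2 it was −0.0231. The summed signal of the 175 tested ribosomal protein probes gave another view, being a share of the summed signal of all probes. It was 5.19%, 5.28%, 5.02% and 5.05% in controls 1 to 4 and 4.95%, 4.89%, 4.96% and 4.87% in P. gingivalis arrays 1 to 4. These shares did not overlap between groups, and nor did the share held by the 100 brightest probes, none of them ribosomal protein probes, which was 19.5% to 20.4% in controls and 20.9% to 21.3% in P. gingivalis muscle. A share falls where another rises, and the part of the brightest probes in the lower share was not tested.

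**Figure D2:**
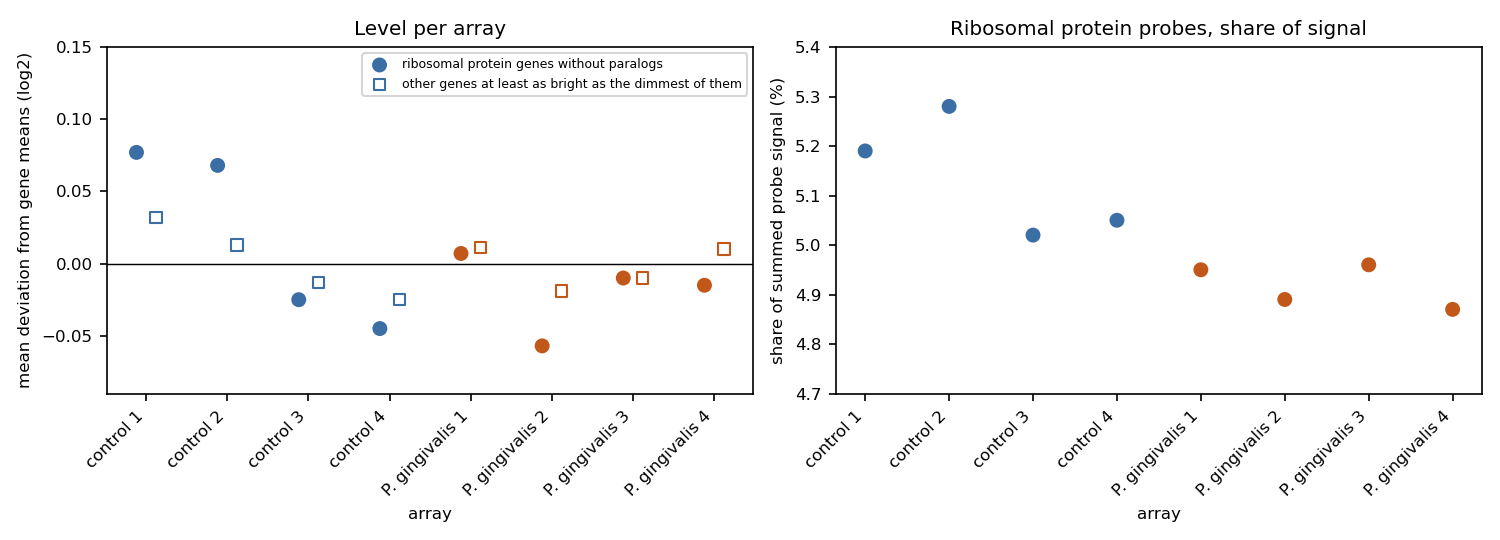
Left, mean deviation from gene means (log2) on each array for the 76 ribosomal protein genes other than paralogs (filled circles) and the 1857 other genes at least as bright as the dimmest of them (open squares). Right, share of summed probe signal held by ribosomal protein probes, on an axis that starts at 4.7%; controls are blue and P. gingivalis arrays orange, and controls 1 and 2 stand highest in both panels.

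Among the 42 large subunit genes, 31 lay below 0 and 11 above, with a median difference of −0.0427 and a range of −0.19 to 0.14. Rpl12, at the base of the stalk, had the lowest difference of the 76 genes. Its level was 7.11, 7.21, 7.02 and 6.86 in controls 1 to 4 and 6.89, 6.82, 6.87 and 6.84 in P. gingivalis arrays 1 to 4. The P. gingivalis arrays were close together at the level of control 4, and the other controls were higher, so the groups overlapped. The difference was −0.19 ± 0.08 (SE), a ratio of 0.875 (95% confidence interval 0.769 to 0.995, adjusted p = 0.436 by limma), and its 3 probes, all on chromosome 2 (mm9), gave −0.19 to −0.11.

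Rpl38, a large subunit protein known for its part in the translation of Hox mRNAs, was at 7.78, 7.73, 7.68 and 7.65 in controls and 7.67, 7.52, 7.54 and 7.58 in P. gingivalis muscle (difference −0.13 ± 0.06 SE, adjusted p = 0.46 by limma). P. gingivalis 1 lay among the controls, and the other P. gingivalis arrays lay below all of them. Rpl18, a large subunit component, was at 5.99, 6.06, 5.93 and 5.86 in controls and 5.83, 5.81, 5.86 and 5.81 in P. gingivalis muscle (−0.13 ± 0.06 SE, adjusted p = 0.461). Control 4 and P. gingivalis 3 were nearly equal, and the groups did not overlap. The other tested probe of Rpl18, also with 10 spots, gave −0.03, and that of Rpl37a, described below, gave −0.08. Rpl34, another component, was at 6.08, 6.05, 5.99 and 5.89 in controls and 5.94, 5.82, 5.86 and 5.84 in P. gingivalis muscle (−0.14 ± 0.07 SE, adjusted p = 0.471), with control 4 below P. gingivalis 1. Rpl37a, a zinc-binding protein of the large subunit, was at 7.91, 7.88, 7.84 and 7.83 in controls and 7.75, 7.72, 7.75 and 7.81 in P. gingivalis muscle (−0.11 ± 0.05 SE, adjusted p = 0.486), and its groups did not overlap.

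The other non-overlapping genes that were lower in P. gingivalis muscle had smaller differences, namely −0.11 for Rpl6, −0.11 for Rpl9, −0.07 for Rpl27 and −0.07 for the small subunit gene Rps10. In each of these the P. gingivalis arrays had an SD of 0.01 to 0.02, and the controls one of 0.04 to 0.1. The narrow P. gingivalis arrays thus lay just under the lowest control. Over all tested probes of a gene, differences ran from −0.12 to 0.03 for Rpl6 and from −0.07 to 0.04 for Rps10. They ran from −0.11 to −0.06 for Rpl9 and from −0.07 to −0.03 for Rpl27. Another probe of Rpl6 with 10 spots gave −0.01, and the probe of Rps10 with 10 spots gave −0.0.

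Rpl4, whose protein lines part of the exit tunnel, had the highest difference of the 76 genes. It was at 7.38, 7.3, 7.32 and 7.27 in controls and 7.5, 7.38, 7.49 and 7.46 in P. gingivalis muscle. Only control 1 reached the lowest P. gingivalis array. The difference was 0.14 ± 0.06 (SE), a ratio of 1.1 (adjusted p = 0.433 by limma), from 1 probe on chromosome 9 from 64026265 to 64026323 (mm9). With the groups of the deposited value table it was −0.0044, and in that table's own values −0.02. Rpl21, a large subunit component, was at 6.98, 6.92, 6.76 and 6.99 in controls and 7.1, 7.02, 6.99 and 7.07 in P. gingivalis muscle (0.13 ± 0.07 SE, adjusted p = 0.501). These groups did not overlap, but the other tested probe of Rpl21 gave −0.06, and the difference was −0.05 under the value table groups.

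**Figure D3:**
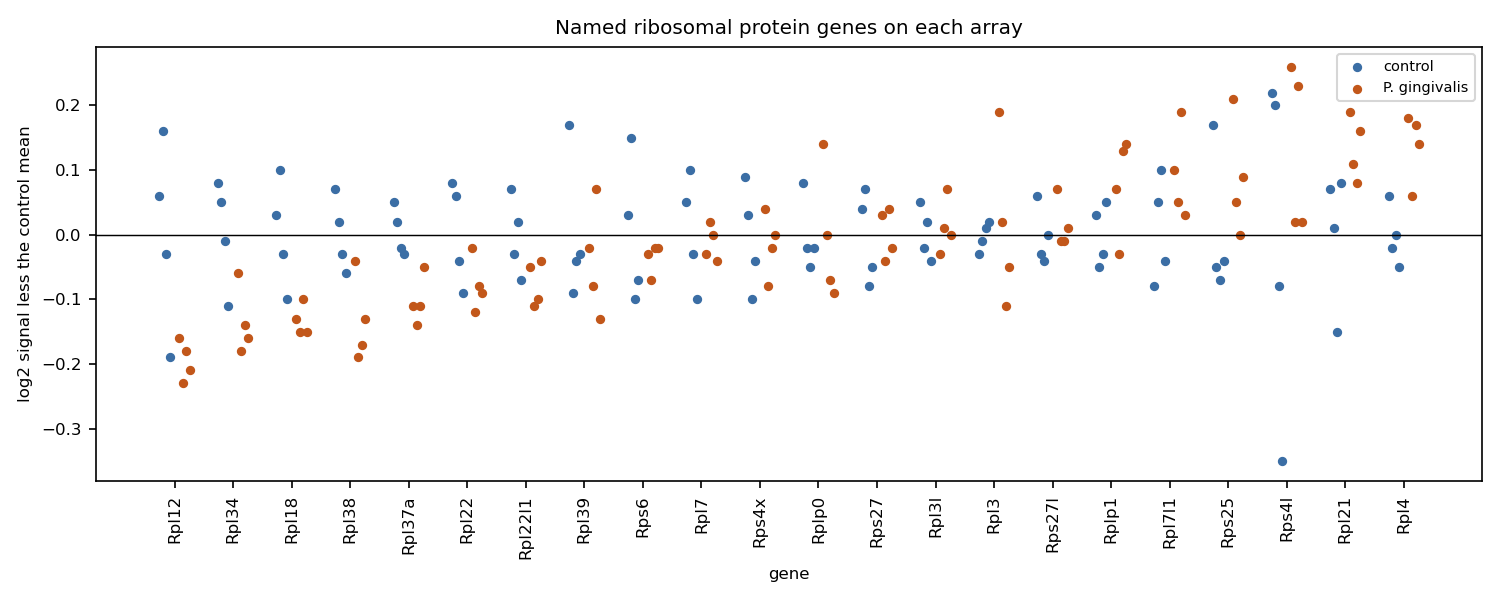
Log2 signal less the control mean on each array (points; controls blue, P. gingivalis orange) for 22 of the 24 genes chosen by rule, ordered by difference from Rpl12 at −0.19 to Rpl4 at 0.14. Rpl39l, whose spread is several times wider, is left out; in most genes the colours intermix.

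Among the 31 small subunit genes, 22 lay below 0 and 9 above, with a median of −0.0401 and a range of −0.12 to 0.09. None reached an unadjusted p under 0.05. Rps6, the substrate of S6 kinase at the end of the mTORC1 pathway, was at 5.93, 6.05, 5.8 and 5.83 in controls and 5.87, 5.83, 5.88 and 5.88 in P. gingivalis muscle. The P. gingivalis arrays lay inside the range of the controls (5.9 ± 0.12 against 5.87 ± 0.03, SD, n = 4 each; difference −0.04, 95% confidence interval −0.2 to 0.13). Rps25, a small subunit protein known for its part in initiation at internal ribosome entry sites, was at 7.32, 7.1, 7.08 and 7.11 in controls and 7.36, 7.2, 7.15 and 7.24 in P. gingivalis muscle (0.09 ± 0.08 SE, adjusted p = 0.695 by limma). Control 1 stood apart from the other controls and near the highest P. gingivalis array. The other tested probe of Rps25 gave −0.1 ± 0.08 (SE).

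Rps28 shows how much the choice of probe can matter, and its probes were singled out after their values were seen. Its brightest probe, with 1 spot, gave −0.03 ± 0.07 (SE). A pair of other Rps28 probes, each with 10 spots, had groups that did not overlap. Both are assigned to chromosome 17 from 33960058 (mm9, minus strand), ending at 33960197 and 33960193. The first was at 7.05, 7.08, 6.94 and 6.93 in controls and 6.88, 6.88, 6.89 and 6.87 in P. gingivalis muscle (−0.12 ± 0.06 SE, adjusted p = 0.471 by limma). The other was at 6.9, 6.9, 6.79 and 6.72 in controls and 6.64, 6.61, 6.61 and 6.63 in P. gingivalis muscle (−0.2 ± 0.06 SE, adjusted p = 0.355). In both, the P. gingivalis arrays were nearly equal and lay below every control. The probe sequences are shown because they are nearly the same, with capitals at the bases that differ in their alignment (54 of 60 columns identical, 2 mismatches and 4 gap columns).
Rps28 first probe: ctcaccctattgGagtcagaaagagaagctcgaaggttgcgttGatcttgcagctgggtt
Rps28 other probe: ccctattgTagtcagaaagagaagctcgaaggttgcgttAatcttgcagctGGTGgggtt
Probes this alike can bind the same transcripts, and ribosomal protein genes have many processed copies in the genome, 5 of which are named on this array as pseudogenes with 6 probes. Signals of such copies cannot be separated here from those of the genes.

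Over all 175 tested ribosomal protein probes, 129 lay below 0 and 46 above, with a median difference of −0.0412. In 59 genes with several tested probes the median range between them was 0.09. All probes of a gene had the same sign in 31 of the 59. Of the 58 such genes other than paralogs, 26 had all probes below 0 and 2 had all above. The probes with the most extreme differences were dim: a probe of Rps12 at −0.7 ± 0.53 (SE) was above background on 4 arrays, and one of Rpl26 at 0.39 ± 0.25 on 7.

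Represented by their brightest probes, 1 of the stalk genes lay above 0 and 2 below. The gene above 0 was Rplp1, whose other tested probes gave −0.06 (10 spots) and −0.07. Rplp1, an acidic stalk protein, was at 8.05, 7.97, 7.99 and 8.07 in controls and 8.09, 7.99, 8.15 and 8.16 in P. gingivalis muscle (0.08, 95% confidence interval −0.07 to 0.22). Its partner Rplp2 was at 8.43, 8.38, 8.33 and 8.36 in controls and 8.37, 8.29, 8.23 and 8.27 in P. gingivalis muscle (−0.09, −0.22 to 0.05). Rplp0, which anchors both of them and is a common reference gene for quantitative PCR, was at 6.52, 6.42, 6.39 and 6.42 in controls and 6.58, 6.44, 6.37 and 6.35 in P. gingivalis muscle. The groups overlapped in all 3 genes. The difference of Rplp0 was −0.0029 (95% confidence interval −0.17 to 0.16), a ratio of 0.998 (0.891 to 1.12), and its sign turned with the scaling.

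The paralogs allow a comparison within each array, from which a constant shift of the array drops out. Rpl3l, the striated muscle paralog of Rpl3, was at 6.38, 6.31, 6.35 and 6.29 in controls and 6.3, 6.34, 6.4 and 6.33 in P. gingivalis muscle (difference 0.01, 95% confidence interval −0.11 to 0.14). Rpl3, which reaches the peptidyl transferase centre, was at 4.04, 4.06, 4.08 and 4.09 in controls and 4.26, 4.09, 3.96 and 4.02 in P. gingivalis muscle (0.02, −0.16 to 0.19). Both genes overlapped between groups, and the P. gingivalis arrays of Rpl3 were more spread than the controls (SD 0.13 against 0.02). The brightest Rpl3l probe lies on chromosome 17 from 24872413 to 24872681 (mm9). Rpl3l minus Rpl3 was 2.34, 2.25, 2.27 and 2.2 in controls and 2.04, 2.25, 2.44 and 2.31 in P. gingivalis muscle. The size of such a difference depends on the probes and is no ratio of the mRNAs. Its change between groups was −0.0039, with the P. gingivalis arrays on both sides of the controls (2-sided exact permutation p = 1 over 70 assignments, smallest possible 0.0286).

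In the other 5 pairs the groups overlapped as well. Rpl22l1 was at 5.67, 5.57, 5.62 and 5.53 in controls and 5.55, 5.49, 5.5 and 5.56 in P. gingivalis muscle. Rpl22, its partner, was at 5.3, 5.28, 5.18 and 5.13 in controls and 5.2, 5.1, 5.14 and 5.13 in P. gingivalis muscle. Each was lower by a similar amount (−0.07 and −0.08), within overlapping groups, and Rpl22l1 minus Rpl22 changed by 0.0092. Rps27l, known as a target of p53, was at 5.84, 5.75, 5.74 and 5.78 in controls and 5.85, 5.77, 5.77 and 5.79 in P. gingivalis muscle. Rps27 was at 7.67, 7.7, 7.55 and 7.58 in controls and 7.66, 7.59, 7.67 and 7.61 in P. gingivalis muscle, and Rps27l minus Rps27 changed by 0.01. Both Rps27 probes are assigned to chromosome 9 (mm9), while the Rps27 start shown above is on chromosome 3. Rpl7l1, a paralog of Rpl7, was dim, at −1.1, −0.97, −0.92 and −1.06 in controls and −0.92, −0.97, −0.83 and −0.99 in P. gingivalis muscle (0.09, 95% confidence interval −0.07 to 0.24). Rpl7 was at 6.55, 6.6, 6.47 and 6.4 in controls and 6.47, 6.52, 6.5 and 6.46 in P. gingivalis muscle. All 4 P. gingivalis arrays had Rpl7l1 minus Rpl7 above the control mean, by 0.11 on average.

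Rps4l, a paralog of the X-linked Rps4x, was at −0.4, −0.42, −0.7 and −0.97 in controls and −0.36, −0.6, −0.39 and −0.6 in P. gingivalis muscle (0.13, 95% confidence interval −0.18 to 0.45). Rps4x was at 5.55, 5.49, 5.36 and 5.42 in controls and 5.5, 5.38, 5.44 and 5.46 in P. gingivalis muscle (−0.01). Rpl39l, a paralog best known from male germ cells, was at the edge of detection, above background on 4 control and 2 P. gingivalis arrays. Its level was −4.48, −4.3, −3.45 and −4.53 in controls and −4.64, −5.13, −5.32 and −4.13 in P. gingivalis muscle. The difference of −0.62 ± 0.32 (SE, adjusted p = 0.497 by limma) was the lowest of the 82 genes, and the groups overlapped. It was 0.01 with normexp, 0.29 with the groups of the value table and 0.07 in that table's own values. Rpl39, a small protein of the exit tunnel, was at 7.28, 7.02, 7.07 and 7.08 in controls and 7.09, 7.03, 7.18 and 6.98 in P. gingivalis muscle (−0.04). Across the 6 pairs, the lowest 2-sided exact permutation p was 0.171 (Rpl7l1 minus Rpl7), and adjusted over the 6 pairs the lowest was 0.572.

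**Figure D4:**
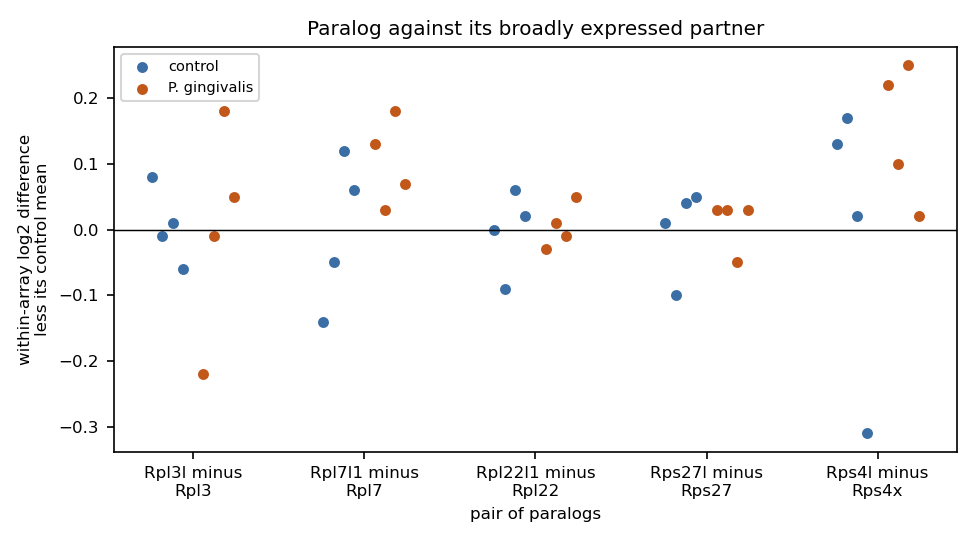
Paralog minus partner (within-array log2 difference, less its control mean) on each array for 5 of the 6 pairs; controls are blue and P. gingivalis arrays orange. The groups overlap in every pair shown; Rpl39l minus Rpl39, whose values range from −12.5 to −10.51, is left out for its wider scale.

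Related genes were read from lists of the pathway, described by counts with no test of a list, and in all 6 lists 0 genes passed an adjusted p of 0.05 by limma. Of 4 ribosomal proteins whose names fall outside the rule, 1 was above 0 and 3 below (median −0.0232, but 0.00873 when centred on the median of all probes): Rack1, the scaffold on the small subunit, gave −0.08 ± 0.06 (SE), and Rpl36al gave 0.03 ± 0.1. Of 20 other TOP mRNAs, 9 were above 0 and 11 below (median −0.0294, but 0.0026 when so centred). Eef1d, an elongation factor subunit, gave −0.09 ± 0.06, Eif3l −0.1 ± 0.07 and Tpt1 0.08 ± 0.06. The mean deviation of these 20 genes was 0.05, 0.07, −0.05 and −0.05 in controls and 0.01, −0.03, 0.01 and −0.02 in P. gingivalis muscle, so controls 1 and 2 were again the highest arrays.

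The 32 ribosome biogenesis factors lay further below 0 than the ribosomal proteins, with 23 below and 9 above and a median of −0.0699. At an unadjusted p under 0.05, 2 of them were lower (6.25%, against 5.83% of all genes) and 0 higher: Sdad1 (−0.21 ± 0.08 SE, adjusted p = 0.395 by limma, groups not overlapping) and Rrs1 (−0.24 ± 0.09, adjusted p = 0.398), both factors of large subunit assembly. Grwd1, a histone-binding protein also linked to ribosome assembly, gave −0.18 ± 0.09. The mean deviation of the list was 0.06, 0.15, −0.02 and −0.06 in controls and −0.02, −0.05, −0.03 and −0.03 in P. gingivalis muscle. Control 2 was the highest, and the groups overlapped.

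Of 15 RNA polymerase I and rDNA factors, 5 were above 0 and 10 below (median −0.0742, but 0.00562 with normexp). Ubtf, the factor that opens rDNA for polymerase I, was higher in P. gingivalis muscle, at 6.93 ± 0.05 against 6.7 ± 0.07 (SD, n = 4 each), with groups that did not overlap. Its difference was 0.22 ± 0.06 (SE, adjusted p = 0.329 by limma). Taf1d, a subunit of the polymerase I selectivity factor, gave −0.25 ± 0.11, and Polr1b, the second largest subunit of polymerase I, −0.18 ± 0.08 with groups not overlapping. These 3 genes had no common direction. Of 27 translation initiation factors, 9 were above 0 and 18 below (median −0.0333), and 0 reached an unadjusted p under 0.05. Eif4a1, the helicase of the cap-binding complex, gave −0.14 ± 0.07, Eif5 −0.09 ± 0.07 and Eif2s3x 0.08 ± 0.06. Of 30 genes of the mTORC1 pathway and of TOP regulation, 14 were above 0 and 16 below (median −0.0165, but 0.0155 when centred on the median of all probes), with 1 higher and 3 lower at an unadjusted p under 0.05 (13.3%, against 10.7% of all genes in both directions). The 3 lowest p-values belonged to Mycn (−0.71 ± 0.2, above background on 3 of 4 P. gingivalis arrays), Mnt (−0.41 ± 0.12, groups not overlapping), both transcription factors of the Myc network, and Flcn (−0.26 ± 0.1), a regulator of mTORC1 activity at the lysosome.

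The 13 genes other than paralogs with the tract at the annotated start had a median difference of −0.053, with 9 below 0 and 4 above. The 43 tested genes with a start window and no such tract (Rpl37, untested, was the other) had a median of −0.0438, with 32 below 0 and 11 above. Both groups thus lay at the level of the ribosomal proteins as a whole.

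Markers of other cell types were read in the same way, and 0 of them passed an adjusted p of 0.05 by limma. All 9 skeletal muscle fibre markers were above 0 (median 0.112, but 7 of 9 and 0.028 with quantile normalization), and their summed signal, in units of the array's 75th percentile, was 6180 to 6850 in controls and 6890 to 7210 in P. gingivalis muscle, without overlap. All 8 fibroblast markers were above 0 (median 0.316; summed signal 247 to 331 in controls and 315 to 377 in P. gingivalis muscle), as were the 5 tested of 6 tendon markers (median 0.312; 19.6 to 28.5 against 28.9 to 36.3), Mkx not being tested. Of 8 macrophage markers 7 were above 0 (median 0.171; 21.8 to 28.1 against 25.4 to 35.2). All 7 endothelial markers were below 0 (6 of 7 under every other scaling; median −0.0517; 15 to 17.9 against 12.5 to 16). Of 8 neutrophil markers 5 were tested, 1 above and 4 below 0 (3 above and 2 below with normexp; 1.42 to 4.46 against 1.71 to 1.88), while Ltf, Ngp and Retnlg were not tested. Further lists were mixed in direction. Lymphocyte markers lay 2 above and 3 below 0, erythroid markers 2 and 5, adipocyte markers 4 and 2, and satellite cell markers 2 and 3. The 5 tested epidermis and melanocyte markers had a mean deviation of 2.09 in control 4 and of −0.58 to −0.03 on the other arrays. The fibroblast list was lowest in control 2, with mean deviations of −0.26, −0.69, 0.09 and −0.08 in controls 1 to 4, where controls 1 and 2 had the highest ribosomal protein level. The part of any cell type in the ribosomal protein values was not tested.

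With the groups of the deposited value table, 73 of the 82 genes lay below 0 (89%, against 55.2% of all genes) and 9 above. The median was −0.0484 against −0.0114 over all genes, and 0 genes had non-overlapping groups. On the 4 arrays whose group the sources share, 2 in each group, 70 lay below 0 (85.4%, against 55.9% of all genes) and 12 above. The median on these arrays was −0.0908 against −0.0259 over all genes. There 54 genes were non-overlapping and lower and 6 higher, 73.2% of the 82, beside 44% of all genes with so few arrays. Those 4 arrays hold controls 1 and 2, the arrays with the highest ribosomal protein level, and leave out controls 3 and 4. The median of the ribosomal protein genes was below 0 and below that of all genes under each of the 22 other processings tried, from −0.0908 to −0.00732. These are not separate tests. Where a processing shifts each array by a constant, changes only the variance model or adds the replicate number, the place below all genes was fixed beforehand. There the gap was −0.0251, as in the reported fit.

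**Figure D5:**
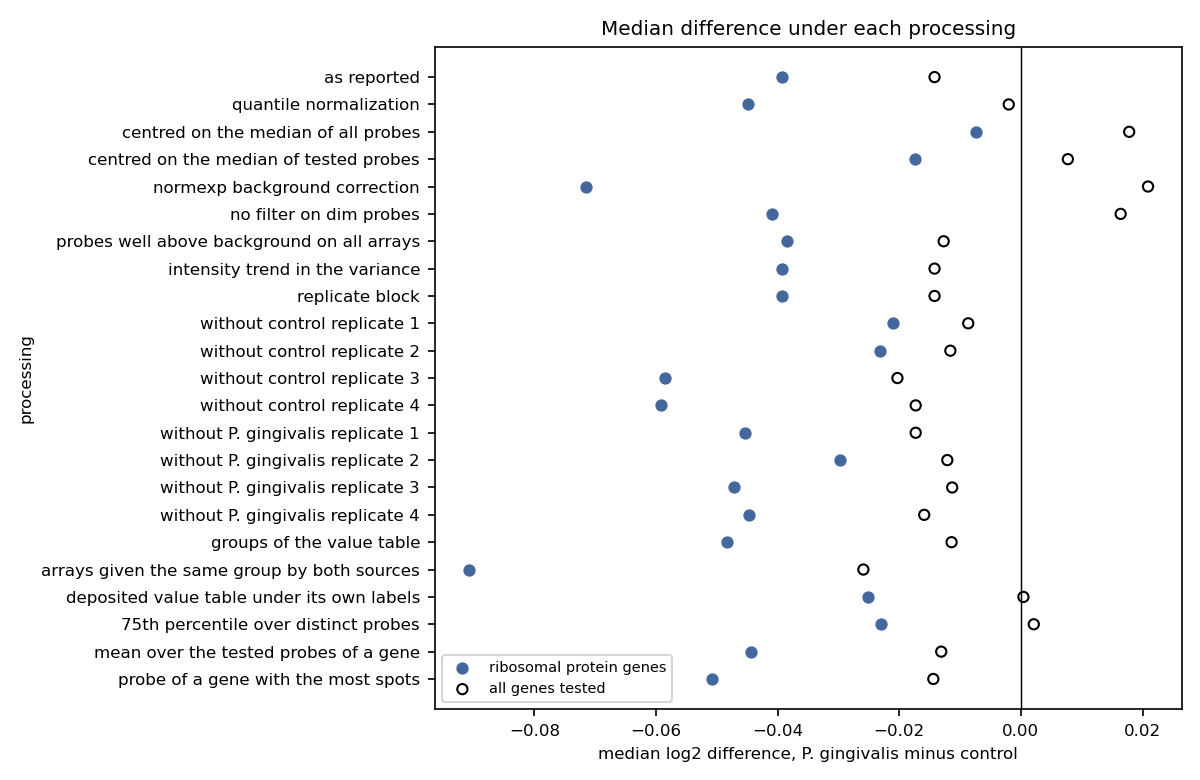
Median log2 difference, P. gingivalis minus control, over the ribosomal protein genes tested (filled) and over all genes tested (open), as reported and under each other processing. The filled points run from −0.0908 to −0.00732 and lie to the left of the open point of the same line. Where a processing only shifts each array by a constant, the distance between the points cannot change. Leaving out control 1 or control 2 brings them closest together.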

How the data were processed

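The authors' deposited scanner files hold 1-colour Cy3 spot intensity. The software was Agilent Feature Extraction, whose version is 11.0.1.1 in the file headers, while the submitters' processing notes name 11.1. Per the file headers the processed intensity is background-subtracted and detrended, and probe positions are on mm9. Labelled cRNA was made from 200 ng of RNA, per the labels' protocols. The deposited value table holds log2 signals of 24764 probes with unstated scaling, and its columns matched the arrays with correlations of 0.833 to 0.88 (next best at most 0.0784), 2 of 8 under the same label. Other deposited flag columns mark outliers, saturation and spots well above background.

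From these, log2 of the processed intensity was taken relative to the array's 75th percentile (all spots but control spots), leaving out outlier spots and averaging the spots of a probe. Probes well above background (over 50% of spots) on at least 4 of 8 arrays were tested, and a gene was represented by its brightest tested probe. Tests used lmFit and eBayes of limma 3.58.1 (R 4.3.3), with Benjamini-Hochberg adjustment over 31649 probes and a threshold of 0.05. The number of arrays limits the precision. The procedure was tested on simulated data. Members, lists and rules were chosen with earlier results of these data known. The genes named are Rpl3, Rpl3l, Rps6, Rplp0, each other tested paralog with its partner, the 6 lowest p in each direction, the most extreme differences, and the 3 lowest p of each pathway list, of which 2 genes are not reported here. Other processings changed the scaling, background correction, filter, variance model, groups, probe choice and arrays included.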

Additional observations from a re-analysis of the deposited data

Results flagged for a closer look

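Dixon's test at 95% was run on 62 sets of 4 arrays, which include the named genes and the paralog pairs in each group. In 2 of them 1 array lay far from the other 3, where chance gives about 1 set in 20. The Rps25 level of control 1 was 7.32, while the other controls lay at 7.08 to 7.11. Rps27l minus Rps27 on P. gingivalis 3 was −1.9, while the other P. gingivalis arrays were all at −1.82.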

How the results depend on the processing

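In 22 other processings, 0 of the ribosomal protein genes passed an adjusted p of 0.05 (the lowest was 0.0654, with normexp background correction). Over the whole array, 14 probes passed it with normexp, 2 with no filter and 2 with an intensity trend. The cause of the changes below was not tested. Counts are of genes with an unadjusted p under 0.05 (at p, in short) and of genes with non-overlapping groups. As reported they were 1 higher and 1 lower, and 1 higher and 6 lower. Quantile normalization gave 5 lower at p (7.32% in both directions, against 10.9% of all genes) and 14 lower non-overlapping (18.3% against 7.39%). Centring on the median of all probes gave 2 higher and 0 lower at p (2.44%, against 9.91% of all genes), and 3 higher and 0 lower non-overlapping (3.66% against 6.92%). Centring on tested probes gave 2 and 0 at p (2.44% against 10.6%), and 2 and 0 non-overlapping (2.44% against 7.21%). Normexp gave 19 lower at p (24.4% in both directions, against 26.4% of all genes), and 0 higher and 14 lower non-overlapping (17.1% against 15.9%). No filter gave 0 and 0 at p (0%, against 8.23% of all genes), and an intensity trend 2 higher and 9 lower (13.4% against 13.1%). The groups of the value table gave 0 for every count, against 3.52% of all genes at p and 2.43% non-overlapping. The 4 arrays of agreed group gave 0 higher and 1 lower at p (1.22%, against 8.1% of all genes). They gave 6 higher and 54 lower non-overlapping (73.2% against 44%), and a median of −0.0908. The value table, read with its own labels, gave 0 and 0 at p (0%, against 3.28% of all genes) and 0 higher and 1 lower non-overlapping (1.22% against 2.23%). The 75th percentile over distinct probes (added after seeing the data) gave 1 higher and 0 lower at p (1.22%, against 10.5% of all genes). It gave 2 higher and 1 lower non-overlapping (3.66% against 7.01%). The mean over a gene's probes gave 0 higher and 3 lower non-overlapping (3.66%, against 6.52% of all genes). The probe with the most spots (also added then) gave 1 higher and 2 lower at p (3.66%, against 10.7% of all genes).

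Leaving out 1 array gave 0 to 1 higher and 0 to 4 lower at p, beside 8.11% to 11.8% of all genes in both directions. Non-overlapping were 1 to 4 higher and 6 to 14 lower, where 10.1% to 13.3% of all genes did not overlap (without control 4, 18.3% of ribosomal protein genes against 12.2%). The lower count was 14 without control 4, 10 without control 3 and 12 without P. gingivalis 1, and the higher count 4 without control 1, 2 without control 2 and 3 without P. gingivalis 2. At p, 4 were lower without control 4, 1 without P. gingivalis 1 or 4, and 0 without any other array. At p, 1 was higher without control 1 or P. gingivalis 2, and 0 without any other array. The median ran from −0.0592 (without control 4) to −0.0211 (without control 1), with −0.0231 without control 2. Rpl3l minus Rpl3 ran from −0.06 to 0.07 (exact permutation p from 0.314 to 1). In a fit with the replicate number, which is also the slide column, as a replicate block, 0 genes were higher and 0 lower at p (0%, against 9.55% of all genes). Deviations of same-numbered arrays correlated weakly (0.0629, 0.0333, 0.0069 and 0.00858). Control 1 correlated best with the P. gingivalis array of its own number, and controls 2 to 4 did not. Such correlations cannot exclude a pairing of the samples in the design.

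Signs changed in differences near 0 and also in larger ones, among them those of Rpl39l, Rpl4, Rpl21, Rps4l, Rpl18 and Rpl37a. Rpl3l minus Rpl3 was 0.0093 with normexp, 0.09 with the groups of the value table, 0.08 on the 4 arrays, 0.12 in the value table, 0.02 with the mean over probes and 0.06 with the most spots. Quantile normalization turned Rplp0 (0.0026) and Rps27 (−0.02). Centring on all probes turned Rpl7 (0.02), Rplp0 (0.03) and Rps4x (0.02), and on tested probes Rpl7 (0.005), Rplp0 (0.02) and Rps4x (0.01). Normexp turned Rpl3 (−0.03), Rpl39l (0.01), Rpl3l (−0.02) and Rps27l (−0.03). The groups of the value table turned Rpl21 (−0.05), Rpl3 (−0.08), Rpl39l (0.29), Rpl4 (−0.0044), Rps25 (−0.1), Rps27 (−0.05), Rps27l (−0.03) and Rps4l (−0.22). The 4 arrays turned Rpl3 (−0.06), Rps25 (−0.01), Rps27 (−0.05), Rps27l (−0.01) and Rps4l (−0.09). The value table turned Rpl18 (0.00017), Rpl21 (−0.07), Rpl22l1 (0.02), Rpl3 (−0.07), Rpl37a (0.0053), Rpl39l (0.07), Rpl4 (−0.02), Rpl7 (0.0033), Rps25 (−0.1), Rps27 (−0.04), Rps27l (−0.06) and Rps4l (−0.2). The percentile over distinct probes turned Rplp0 (0.01) and Rps4x (0.0056). The mean over probes turned Rpl3 (−0.01), Rpl7 (0.06), Rplp1 (−0.02), Rps25 (−0.0059) and Rps4x (0.02). The most spots turned Rpl3 (−0.05) and Rplp1 (−0.06). With 1 array left out, Rpl3 ran from −0.04 to 0.06, Rpl39 from −0.08 to 0.01, Rpl3l from −0.0071 to 0.03, Rpl7 from −0.05 to 0.01, Rplp0 from −0.05 to 0.03, Rps27 from −0.02 to 0.03, Rps27l from −0.00068 to 0.04, Rps4x from −0.04 to 0.02 and Rps6 from −0.07 to 0.01. Rpl12, Rpl22, Rpl34, Rpl38 and Rpl7l1 kept their sign in all 22.

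Signal over background limits Rpl39l, the dim probes of Rps12 and Rpl26, and the untested Rpl37 and Rpl10l.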
